A study of Mus musculus with 8 samples.

Results

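The genes described here are 40 genes of peroxisome biogenesis and peroxisomal lipid metabolism, measured in the livers of TgC6hp55 mice and of wild type controls. They were chosen by name, as every probe whose gene symbol in the array annotation is one of the 40, which gave 64 of the 25697 probes on the array. Of the 40 genes, 13 encode peroxins, the Pex proteins that build the organelle, and 27 encode enzymes and membrane proteins that act in or on it. TgC6hp55 mice carry the coding sequence of human TNFR1, a receptor of the cytokine TNF, under the CollagenVI (Col6a1) promoter, which is active in mesenchymal cells, followed by the hGH minigene, which holds the human growth hormone gene. The controls were wild type (WT). All 8 mice, 4 TgC6hp55 and 4 wild type, were C57BL/6J males aged 21 weeks, with no treatment. Each liver was hybridised to 1 array, on Illumina Mouse Ref-8 BeadChips. Most of the work on these mice used the line of a single founder, in which the insertion removes exons of Icoslg and Dnmt3l, and no source used here names the founder of the arrayed mice. Effects of the receptor, the minigene and the insertion cannot be told apart in this comparison.

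Peroxisomes are organelles with a single membrane that take in their enzymes fully folded from the cytosol. In liver they shorten fatty acids that are very long or branched and the side chains of bile acid precursors. They also make ether lipids and oxidise hydroxy acids, producing hydrogen peroxide that catalase destroys. In rodents many of these enzymes are known targets of PPARα, a nuclear receptor for fatty acids, and compounds that activate it make peroxisomes multiply.

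Values are log2 normalized signals of a probe, and changes are TgC6hp55 minus wild type differences on that scale, so that 1 is a doubling. A probe was tested where at least 4 of the 8 arrays detected it, that is, where it stood above negative control beads with a detection p under 0.05. The brightest probe stood for each gene, and limma gave p-values adjusted by the Benjamini-Hochberg method over 8540 features, with 0.05 as the threshold. The mean signal of an array before normalization was 112 (replicate 4) to 224 (replicate 3) in the TgC6hp55 livers and 167 to 179 in the wild type livers. Among hepatocyte markers, 5 of 8 were tested and none passed in the comparison of the groups, and Apoa1, Ttr, Cps1 and Hnf4a were well detected in every liver, whereas the probe of Alb was dim. The amylase gene Amy2a5, a pancreas marker, was at 11.65 in wild type replicate 3 and between 5.35 and 6.06 in the other 7 livers, and each of the 11 changes called below was also called without that liver. The other tested pancreas marker, the elastase gene Cela1, was at 7.36, 7.55, 7.40 and 7.36 in the TgC6hp55 livers, against 9.27, 9.29, 10.52 and 9.07 in the wild type livers. All 4 TgC6hp55 livers were lower (change -2.12, adjusted p = 2.00e-04 from limma), and the 2 markers summed to 191 to 211 units of normalized signal in TgC6hp55 and 572 to 4659 in wild type livers.

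Of the 40 genes, 36 had a probe that was tested. Of these, 11 passed, 7 higher and 4 lower in the TgC6hp55 livers, against a background of 942 of 8540 features (11%), of which 557 (6.52%) were higher and 385 (4.51%) lower. All 11 were metabolic genes. Of the 36 genes, Hao2 was tested through the TgC6hp55 arrays alone, since no wild type array detected it. Abcd2, detected on 4 TgC6hp55 arrays and 1 wild type array, also met the filter through the TgC6hp55 livers. The places of Hao2 and Abcd2 among the 7 are therefore not independent of the detection filter. No biogenesis gene passed (0 of 13), whereas 11 of the 23 tested metabolic genes did, and the difference between these shares was not tested. The median change was 0.12 for the biogenesis genes, 0.06 for the metabolic genes and -0.01 for all features, while the median size of the change, regardless of sign, was 0.13, 0.34 and 0.15 in the same order. Without 1 liver at a time the median ran from 0.05 to 0.18 for the biogenesis genes, lowest without TgC6hp55 replicate 3, and from -0.01 (without TgC6hp55 replicate 2) to 0.10 for the metabolic genes. The groups did not overlap for 10 of the 36 genes, all metabolic, against 16.8% of all features. The metabolic genes thus moved in both directions, and their median near 0 hid changes from -0.997 to 3.75.

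**Figure D1:**
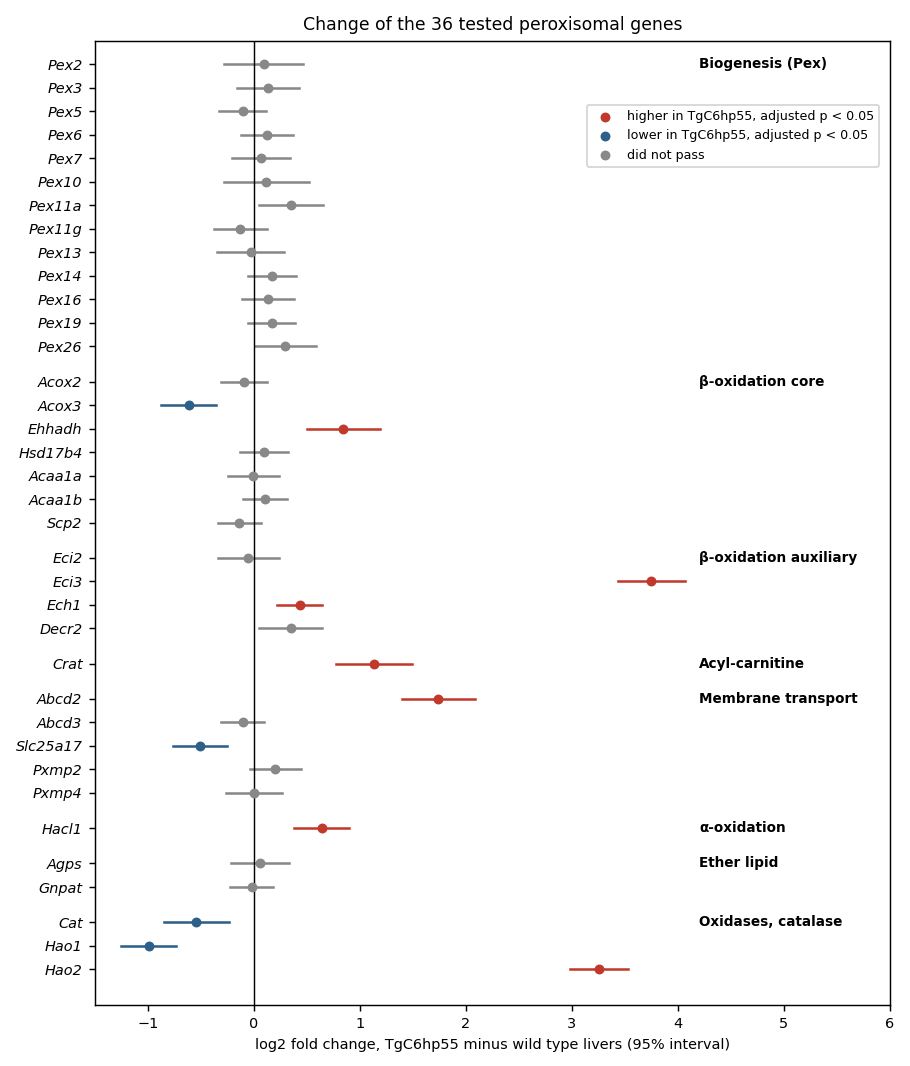
Log2 fold change (TgC6hp55 minus wild type livers, x axis) with its 95% interval from limma for each of the 36 tested genes, grouped by role; red genes were higher and blue genes lower at an adjusted p under 0.05, and grey genes did not pass. All 13 Pex genes lie between -0.13 and 0.35, while the metabolic genes spread from -0.997 (Hao1) to 3.75 (Eci3); the fitted value of Hao2 rests on wild type signals at background, for which the text gives a bound.

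Markers of other liver cells were measured on the same arrays. Of 5 tested Kupffer cell markers, Adgre1 and Marco were higher and none lower, against 6.52% higher and 4.51% lower over all features. Marco was detected on 4 TgC6hp55 arrays and 1 wild type array, so it met the filter through the TgC6hp55 livers. Its groups overlapped. The summed normalized signal of the 5 Kupffer cell markers was 689 to 1073 in the TgC6hp55 livers and 180 to 865 in the wild type livers. Of 5 tested sinusoidal endothelial markers, Fcgr2b and Pecam1 were higher and none lower, against the same shares over all features. Their sums were 2469 to 2689 in TgC6hp55 and 1571 to 2407 in wild type livers, over the 5 markers. Differences from the shares over all features were not tested. The 5 tested hepatocyte markers summed to 28864 to 32075 in TgC6hp55 and 29549 to 31641 in wild type livers, with 0 that passed the threshold. The part of these cells, and of the pancreas markers, in the changes of the peroxisomal genes was not tested, and in whole liver fewer cells of a type and less RNA per cell cannot be told apart. The livers came from separate animals, and no batch of extraction or hybridisation is named in the sources used here.

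The biogenesis genes cover each step of peroxisome assembly. Pex3, Pex16 and Pex19 insert membrane proteins, Pex5 and Pex7 are the receptors that carry enzymes from the cytosol, Pex13 and Pex14 form the docking site, Pex2 and Pex10 are ubiquitin ligases of receptor recycling, Pex6 and its membrane anchor Pex26 pull the receptors out, and Pex11a and Pex11g act in elongation and division. Their changes ran from -0.13 (Pex11g) to 0.35 (Pex11a), 10 positive and 3 negative, and the smallest adjusted p was 0.145 from limma. The 95% intervals of the 13 genes spanned -0.38 to 0.65. In signal with the offset included, a change beyond 1.30-fold down or 1.57-fold up thus lay outside the interval of every Pex gene. The offset shrinks the changes of dim probes, so these limits do not bound the change in RNA of Pex10 and Pex13, which were near background.

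Pex11a, which in rodents is induced by PPARα activators, had signals of 9.92, 10.01, 9.49 and 9.73 in the TgC6hp55 livers, against 9.48, 9.20, 9.39 and 9.69 in the wild type livers. The groups overlapped, since wild type replicate 4 was above TgC6hp55 replicate 3, and the change of 0.35 (SE 0.14) had an adjusted p of 0.145. The other tested Pex11a probes, ILMN_2960982 and ILMN_1249264, changed less, by 0.17 and 0.08 (limma adjusted p = 0.541 and 0.851 over all detected probes). Pex26 was the only other biogenesis gene whose 95% interval left out 0, with 0.01 as its lower bound. Its signals were 6.40, 6.46, 6.55 and 6.89 in the TgC6hp55 livers, against 6.35, 6.28, 6.05 and 6.44 in the wild type livers, a change of 0.30 (SE 0.13, adjusted p = 0.185). Here only TgC6hp55 replicate 1 fell within the range of the wild type livers.

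The membrane protein factors Pex3, Pex16 and Pex19 changed by 0.13, 0.13 and 0.17. The receptors Pex5 and Pex7 changed by -0.11 and 0.07, and the docking proteins Pex13 and Pex14 by -0.03 and 0.17. Pex2, Pex10 and Pex6 changed by 0.09, 0.12 and 0.12, and none of these values passed. Pex10 was near background, detected on 2 TgC6hp55 and 2 wild type arrays, so its change is poorly measured. Pex13 was also dim, with mean signals of 4.99 in TgC6hp55 and 5.02 in wild type livers, and 3 TgC6hp55 and 4 wild type arrays detected it. Of all 25 probes of the biogenesis genes, 22 were tested in a fit that kept every detected probe, with changes from -0.20 to 0.35, and none passed (smallest adjusted p = 0.1499 from limma). In that fit 10.4% of all detected probes passed.

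The largest increases among the 40 genes were those of Eci3 and Hao2. Eci3 encodes a peroxisomal enoyl-CoA isomerase, which moves the double bond of unsaturated fatty acids so that β-oxidation can go on. Its signal was 8.003, 8.49, 8.32 and 8.73 in the TgC6hp55 livers, against 4.65, 4.77, 4.50 and 4.62 in the wild type livers. Every TgC6hp55 liver stood more than 3 log2 units above every wild type liver, in which Eci3 was barely above background (detected on 3 of 4 arrays). The change was 3.75 (SE 0.14, adjusted p = 5.37e-09 from limma), a 13.4-fold difference in signal with the offset included. Hao2 encodes a peroxisomal oxidase of long-chain hydroxy acids. Its signal was 7.31, 7.62, 7.14 and 7.67 in the TgC6hp55 livers, against 4.18, 4.17, 4.17 and 4.19 in the wild type livers. No wild type array detected it, so only a bound can be given, and Hao2 was at least 7.23-fold higher in the TgC6hp55 livers (adjusted p = 5.37e-09 from limma, for a probe that met the filter through these livers alone). For this bound, a wild type signal under the lowest detected signal of its array was raised to that signal.

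Both genes have a close relative that behaved otherwise. Eci2, another peroxisomal enoyl-CoA isomerase, had signals of 8.79, 9.15, 8.67 and 8.84 in the TgC6hp55 livers, against 8.93, 8.68, 9.14 and 8.92 in the wild type livers. The groups overlapped, with a change of -0.05 (95% interval -0.34 to 0.23). Hao1 encodes glycolate oxidase, which makes the glyoxylate that becomes oxalate or glycine. Its signal was 10.24, 10.01, 9.96 and 9.73 in the TgC6hp55 livers, against 11.10, 11.05, 10.90 and 10.87 in the wild type livers. All 4 TgC6hp55 livers lay below all 4 wild type livers, and the change was -0.997 (SE 0.12, adjusted p = 2.01e-04 from limma). Of the 2 hydroxy acid oxidases, one therefore rose and the other fell.

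Eci3 and Eci2 lie next to each other on chromosome 13 with no protein-coding gene between them, whereas Hao2 is on chromosome 3 and Hao1 on chromosome 2. The 250 bases before the annotated start of each are shown because the members of each pair moved apart, so that their upstream sequences can be set side by side. They are from RefSeq (build GRCm38.p6), all on the minus strand and written 5′ to 3′ in the direction of the gene, at chr13:34963810-34964059 (Eci3), chr13:34994145-34994394 (Eci2), chr3:98893231-98893480 (Hao2) and chr2:134554353-134554602 (Hao1). Capitals mark GC boxes (GGGCGG) and CCAAT boxes (CCAAT) on either strand.
Eci3: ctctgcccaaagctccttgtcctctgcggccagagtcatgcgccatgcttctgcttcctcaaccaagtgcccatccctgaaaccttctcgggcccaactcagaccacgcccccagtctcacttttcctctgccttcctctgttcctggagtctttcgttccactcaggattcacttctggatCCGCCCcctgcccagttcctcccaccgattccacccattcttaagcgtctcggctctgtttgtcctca
Eci2: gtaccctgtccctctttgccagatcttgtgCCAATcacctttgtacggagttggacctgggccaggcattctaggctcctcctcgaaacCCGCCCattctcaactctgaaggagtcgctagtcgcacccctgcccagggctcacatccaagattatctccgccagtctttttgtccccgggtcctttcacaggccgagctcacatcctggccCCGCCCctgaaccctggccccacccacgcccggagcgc
Hao2: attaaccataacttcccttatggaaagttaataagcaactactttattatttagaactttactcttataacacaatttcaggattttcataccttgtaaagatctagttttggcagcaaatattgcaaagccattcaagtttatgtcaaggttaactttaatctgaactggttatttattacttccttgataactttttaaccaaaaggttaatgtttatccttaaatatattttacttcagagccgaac
Hao1: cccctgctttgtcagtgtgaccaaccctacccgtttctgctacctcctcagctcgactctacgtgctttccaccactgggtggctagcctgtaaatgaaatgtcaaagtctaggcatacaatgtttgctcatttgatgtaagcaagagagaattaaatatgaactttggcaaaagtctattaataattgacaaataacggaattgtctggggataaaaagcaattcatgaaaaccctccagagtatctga

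The GC content was 57.2% for Eci3 and 61.2% for Eci2, and 28.4% for Hao2 and 41.6% for Hao1. Aligned end to end, Eci3 and Eci2 were identical at 47.2% of positions and Hao2 and Hao1 at 48%, close to the 40.3% to 46.4% of pairs from different families among 6 of the genes. Eci3 has 1 GC box and no CCAAT box, Eci2 has 2 GC boxes and 1 CCAAT box, and Hao2 and Hao1 have neither. For scale, 32.7% of 32851 upstream windows of the same length hold a GC box and 33.8% a CCAAT box. The full repeat AGGTCANAGGTCA, a form of the element that PPARα binds with its partner RXR, was in none of the 33 members with a sequence in the table and in 0.0335% of all windows. Its single repeat AGGTCA was in those of Cat, Scp2 and Pex11g, and in 14% of all windows. These are matches of letters in a short window and say nothing of binding.

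Across the 6 pairs of related genes that could be tested, the change of one member minus the change of the other was compared by an exact permutation test over the 8 livers, two-sided, with p-values adjusted over the 6 pairs. In 5 pairs the exact permutation test gave p = 0.0286, the smallest that 70 splits allow (adjusted p = 0.0343). Among these, the p-values of Hao2 minus Hao1 and of Abcd2 minus Abcd3 are given as descriptions. Hao2 met the filter through the TgC6hp55 livers alone, and Abcd2 met it only because all 4 of these livers detected it. The difference in change was at least 3.85 for Hao2 minus Hao1, computed with the floor used for Hao2 above, 3.80 for Eci3 minus Eci2, 1.85 for Abcd2 minus Abcd3 (1.699 with that floor), 0.52 for Acox2 minus Acox3 and 0.48 for Pex11a minus Pex11g. For Acaa1b minus Acaa1a it was 0.12 (exact permutation p = 0.343). The pairs were chosen by family, but with earlier results of these data known, so these p-values are not independent of the choice. The seventh pair, Crat and Crot, was not tested because Crot, detected on 1 wild type array only, did not meet the detection filter. The adjusted p of the Acox pair was 0.0686 without any 1 of the TgC6hp55 livers (differences 0.51 to 0.54), and that of the Pex11 pair was 0.0686 without any 1 of the wild type livers (0.41 to 0.52), in exact permutation tests. The Pex11 pair used the brightest Pex11a probe, whose change was the largest of the tested Pex11a probes.

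**Figure D2:**
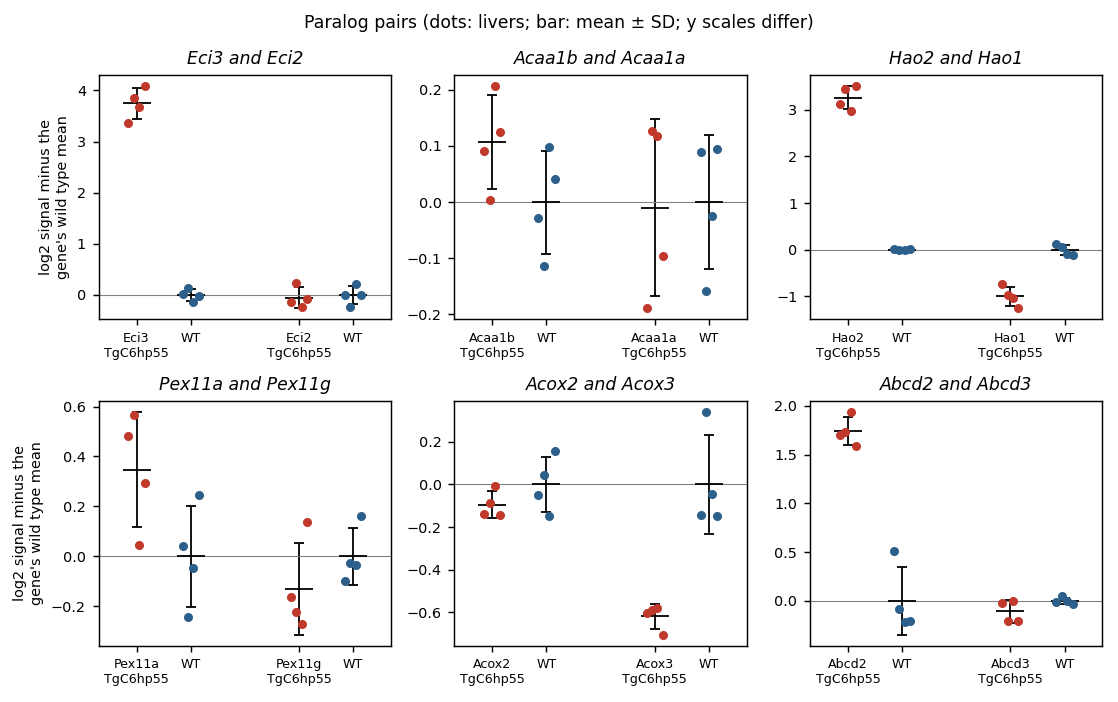
Log2 signal of each liver minus the gene's own wild type mean (y axis, with a different scale in each panel) for the 6 tested pairs, TgC6hp55 in red and wild type in blue; dots are livers and bars are the mean ± SD. Eci3, Hao2 and Abcd2 are above the wild type livers in all 4 TgC6hp55 livers, while the TgC6hp55 livers overlap the wild type livers for Eci2, Abcd3, Acaa1a and Acaa1b, and Hao1 and Acox3 are below.

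Transport and export genes also split. Abcd2 is an ABC transporter that brings very long-chain acyl-CoAs into the peroxisome. Its signal was 6.25, 6.28, 6.48 and 6.13 in the TgC6hp55 livers, against 5.06, 4.46, 4.33 and 4.34 in the wild type livers. The groups did not overlap, and among the wild type livers only replicate 1 detected Abcd2. The change was 1.74 (SE 0.16, adjusted p = 1.91e-05 from limma), or 1.59 with undetected signals raised to the lowest detected signal of their array. This probe met the filter only because all 4 TgC6hp55 livers detected it, so its p-value is given as a description. A second Abcd2 probe, detected in all 4 TgC6hp55 livers and in no wild type liver, was at least 1.60-fold higher. It met the filter through the TgC6hp55 livers alone and is given as a description. Abcd3, which carries branched-chain and bile acid intermediates and is one of the main proteins of the peroxisomal membrane, had signals of 12.09, 11.89, 12.10 and 11.90 in the TgC6hp55 livers, against 12.09, 12.15, 12.10 and 12.07 in the wild type livers. The groups overlapped and the change was -0.11 (95% interval -0.31 to 0.10).

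Slc25a17 carries cofactors such as CoA, FAD and NAD across the peroxisomal membrane. Its signal was 8.18, 8.30, 7.99 and 7.80 in the TgC6hp55 livers, against 8.57, 8.66, 8.52 and 8.55 in the wild type livers, all 4 TgC6hp55 values being lower (change -0.51, SE 0.12, adjusted p = 0.0159 from limma). The call was lost without wild type replicate 2, where the adjusted p from limma was 0.0576. The membrane proteins Pxmp2, a channel, and Pxmp4 changed by 0.20 and 0.00 and did not pass. Crat, found in peroxisomes and mitochondria, transfers short acyl groups to carnitine, a form in which they leave the organelle. Its signal was 8.07, 7.74, 7.36 and 8.18 in the TgC6hp55 livers, against 6.58, 6.58, 6.79 and 6.85 in the wild type livers. The TgC6hp55 livers spread more widely but all lay above the wild type livers (change 1.13, SE 0.16, adjusted p = 8.99e-04 from limma), and the other 2 Crat probes were not detected often enough to be tested. Crot, which does the same for medium-chain acyl groups, was detected on 1 wild type array and no TgC6hp55 array.

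The 7 tested core enzymes of the β-oxidation spiral showed no common direction, with 3 positive and 4 negative changes. Of the 7, 1 passed as higher and 1 as lower, against 6.52% and 4.51% of all features, a difference that was not tested. Acox3 is an oxidase that starts the oxidation of branched-chain acyl-CoAs. Its signal was 7.14, 7.15, 7.16 and 7.04 in the TgC6hp55 livers, against 7.60, 8.08, 7.69 and 7.59 in the wild type livers. The TgC6hp55 livers were close together and all below the wild type livers, of which replicate 2 was the highest (change -0.62, SE 0.12, adjusted p = 0.00629 from limma). Acox2, the oxidase that acts on bile acid intermediates, had signals of 10.64, 10.69, 10.77 and 10.64 in the TgC6hp55 livers, against 10.73, 10.82, 10.63 and 10.94 in the wild type livers. These overlapped, and the change was -0.09 (95% interval -0.31 to 0.12).

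Ehhadh, the bifunctional enzyme that carries out the hydratase and dehydrogenase steps, was higher. Its signal was 7.77, 7.76, 7.46 and 7.07 in the TgC6hp55 livers, against 6.49, 6.81, 6.84 and 6.55 in the wild type livers. The groups did not overlap, although TgC6hp55 replicate 4 was close to the wild type range (change 0.84, SE 0.16, adjusted p = 0.00524 from limma). Hsd17b4, the other bifunctional enzyme, which handles branched-chain and bile acid intermediates, changed by 0.09 and did not pass. The thiolases close the cycle. Acaa1a had signals of 11.37, 11.69, 11.68 and 11.46 in the TgC6hp55 livers, against 11.65, 11.40, 11.53 and 11.65 in the wild type livers. Acaa1b had 13.49, 13.40, 13.60 and 13.52 in the TgC6hp55 livers, against 13.37, 13.28, 13.50 and 13.44 in the wild type livers. Both genes overlapped between the groups, with changes of -0.01 (95% interval -0.25 to 0.23) and 0.11 (95% interval -0.10 to 0.31).

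Among the auxiliary enzymes for unsaturated fatty acids, Ech1, a dienoyl-CoA isomerase found in peroxisomes and mitochondria, had signals of 12.25, 12.19, 12.13 and 11.95 in the TgC6hp55 livers, against 11.71, 11.64, 11.71 and 11.74 in the wild type livers. All 4 TgC6hp55 livers were higher, by a small amount (change 0.43, SE 0.10, adjusted p = 0.0141 from limma), and the call was lost without TgC6hp55 replicate 1 (adjusted p = 0.0511, limma). Decr2, a dienoyl-CoA reductase, changed by 0.34 (adjusted p = 0.139, limma) on 1 probe and 0.33 on another, and did not pass.

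Hacl1 encodes the lyase that cleaves the intermediate of α-oxidation, the pathway for phytanic acid. Its signal was 7.84, 8.14, 8.26 and 7.86 in the TgC6hp55 livers, against 7.38, 7.48, 7.43 and 7.24 in the wild type livers, with no overlap (change 0.64, SE 0.12, adjusted p = 0.00475 from limma). Phyh, the hydroxylase that precedes it, was detected on no array, as were both probes of Far1, the reductase that provides fatty alcohols for ether lipids. Amacr, the racemase for branched-chain acyl-CoAs, was detected on 1 TgC6hp55 and 1 wild type array and was not tested. For these genes and Crot the array gives no measure of a change. The ether lipid enzymes Agps and Gnpat, which make the first intermediates of plasmalogens, changed by 0.06 and -0.02, with 95% intervals within -0.23 to 0.33.

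Catalase, which breaks down hydrogen peroxide, had the highest adjusted p of the 11 genes that passed. The signal of Cat was 10.60, 10.16, 10.34 and 10.07 in the TgC6hp55 livers, against 11.07, 10.93, 10.79 and 10.57 in the wild type livers. TgC6hp55 replicate 1 lay above wild type replicate 4, so the groups overlapped, and the change was -0.54 (SE 0.14, adjusted p = 0.0291 from limma). The call held in 3 of the 8 fits that left out 1 liver. It was lost without TgC6hp55 replicate 2, 3 or 4 and without wild type replicate 1 or 2, where the adjusted p from limma was 0.0531 to 0.0913. With all 8 livers but no filter on dim probes it was lost too (limma adjusted p = 0.0714).

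**Figure D3:**
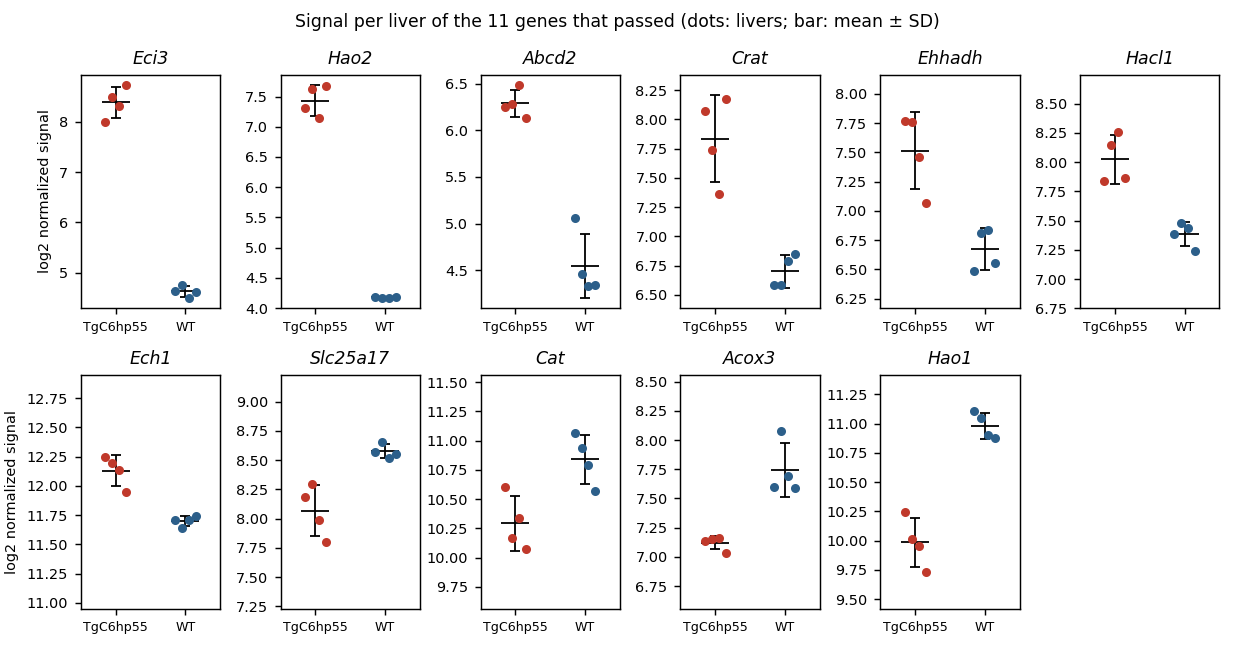
Log2 normalized signal per liver (y axis, with a different scale in each panel) of the 11 genes that passed, TgC6hp55 in red and wild type in blue; dots are livers and bars are the mean ± SD. The groups are apart in every panel but that of Cat, where the highest TgC6hp55 liver (10.60) is above the lowest wild type liver (10.57).

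When the arrays were scaled by the median in place of quantile normalization, Ehhadh, Hacl1, Ech1, Acox3, Cat and Slc25a17 kept their direction and lost the call (limma adjusted p = 0.127 to 0.735), and the count over all features was 293. Under an unpaired t-test with equal variances, Ehhadh, Slc25a17 and Cat lost theirs (adjusted p = 0.0551, 0.0560 and 0.107). The paper names unpaired t-tests in its general statistics, whereas it called array genes by Significance Analysis of Microarrays (SAM). Eci3, Hao2, Abcd2, Crat and Hao1 passed in all 19 alternatives that were computed.

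For Scp2 the probes of the gene disagreed. Scp2 encodes, from different start sites, a peroxisomal thiolase for branched chains (SCPx) and a shorter lipid carrier (SCP2) that share their end. The brightest probe (ILMN_2705886) had signals of 12.69, 12.63, 12.79 and 12.81 in the TgC6hp55 livers, against 12.90, 12.79, 12.97 and 12.82 in the wild type livers. The groups overlapped there, with a change of -0.14 (95% interval -0.34 to 0.07), and another probe (ILMN_2705881) changed by -0.11. The probe ILMN_1221684 had signals of 10.05, 9.94, 10.22 and 9.56 in the TgC6hp55 livers, against 12.32, 12.16, 12.09 and 11.83 in the wild type livers. All 4 TgC6hp55 livers were far below all wild type livers on that probe, and the change was -2.16 (SE 0.15, adjusted p = 1.01e-06 over 11100 probes, limma), or 0.224 times the wild type signal. Scp2 is not among the 11 genes counted above because the brightest probe stands for the gene. Which Scp2 transcripts each probe reads is not given in the sources used here, and probe levels are not compared with each other. Of the 39 probes of the metabolic genes, 28 were tested in the fit of all detected probes and 13 passed, those of the 11 genes, the second Abcd2 probe and this one, 2 of them (Hao2 and the second Abcd2 probe) detected in the TgC6hp55 livers alone.

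**Figure D4:**
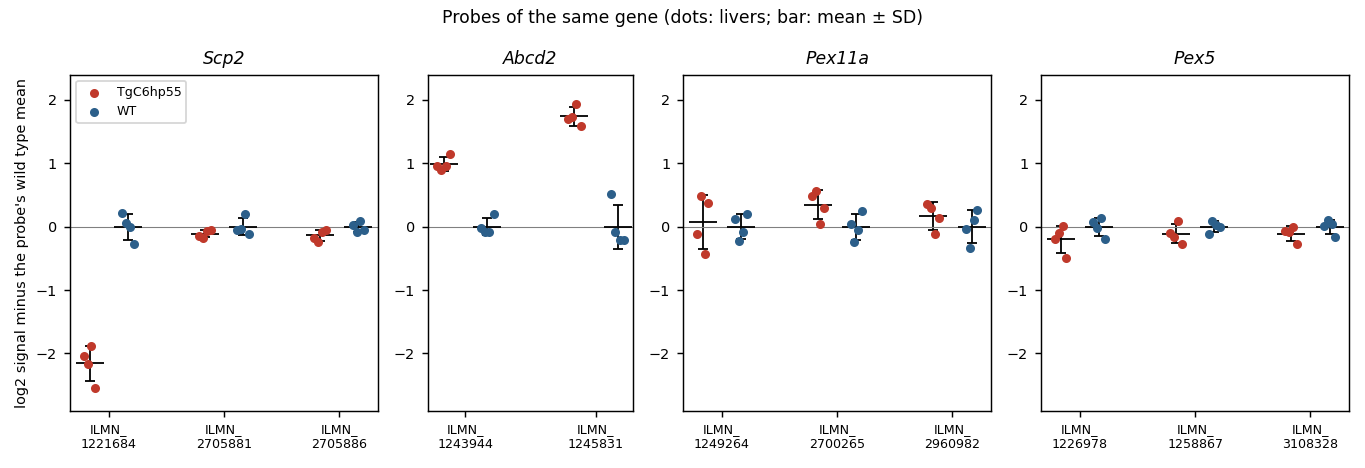
Log2 signal of each liver minus the probe's own wild type mean (y axis) for every tested probe of Scp2, Abcd2, Pex11a and Pex5, TgC6hp55 in red and wild type in blue; dots are livers and bars are the mean ± SD. One Scp2 probe changes by -2.16 while the others change by -0.11 and -0.14, both Abcd2 probes are higher, and the Pex11a and Pex5 probes overlap between the groups.

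Other peroxisomal genes were taken from a list of 51, of which 36 were tested, 3 higher and 4 lower, with a median change of -0.02, against 6.52% higher, 4.51% lower and a median of -0.01 over all features. Acot3 and Acot4, acyl-CoA thioesterases of the peroxisome, rose by 5.56 and 2.47 (limma adjusted p = 8.76e-10 and 1.71e-08), and Nudt7, a hydrolase of peroxisomal CoA, fell by 2.09 (adjusted p = 2.67e-06). Acsl4, an acyl-CoA synthetase, and Mpv17l, a peroxisomal membrane protein, fell by 0.65 each (limma adjusted p = 0.00684 and 0.0116). Both calls were lost with median scaling (limma adjusted p = 0.106 and 0.169), that of Mpv17l also under the unpaired t-test (adjusted p = 0.0703). The other 2 were Agxt (0.51), which converts the glyoxylate made by Hao1, and Ephx2 (-0.35), an epoxide hydrolase. Both were named after their values were seen, and both calls were fragile: that of Agxt was lost without TgC6hp55 replicate 2 or wild type replicate 1, 2 or 3 (limma adjusted p = 0.0566 to 0.0691), and that of Ephx2 held only without TgC6hp55 replicate 3 (0.0539 to 0.104 in the other 7 fits). The call of Ephx2 was also lost with the replicate number as a block (limma adjusted p = 0.0531). Of 4 further peroxins listed, 1 is on the array and none was tested.

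The receptor Ppara itself was dim and changed by 0.08 (limma adjusted p = 0.779), and its partner Rxra by -0.25 (adjusted p = 0.220). Of 15 tested PPARα targets outside the 40 genes, 3 rose and none fell, with a median change of 0.29, against 6.52% higher and a median of -0.01 over all features. These were Cyp4a14, a fatty acid hydroxylase, by 3.42, Acot1, a cytosolic thioesterase, by 1.51 and Acadm, a mitochondrial dehydrogenase, by 0.38. Of the 9 tested regulators 1 passed, a share near the 11% of all features that did. It was Pparg, the related receptor best known from fat cells (0.61, limma adjusted p = 0.0181). The call of Pparg was lost without TgC6hp55 replicate 1 or wild type replicate 1 or 2 (limma adjusted p = 0.0563 to 0.0637), and that of Acadm held only without TgC6hp55 replicate 4 or wild type replicate 1 (0.0866 to 0.125 in the other 6 fits) and was lost with the replicate number as a block (0.0513).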

How the data were processed

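Liver RNA of 4 TgC6hp55 and 4 wild type mice was hybridised to 1 array each, and groups were taken from the genotype in the labels. The authors deposited intensities from GenomeStudio 2011.1 without normalization between arrays, which go below 0 because a background was subtracted, with a detection p-value for each probe. They also deposited intensities after cubic spline normalization, used here as an alternative. Analyses used R 4.3.3 and limma 3.58.1. Intensities were corrected by normexp from the detection p-values (offset 16), quantile normalized and given in log2 units (neqc), which left 11100 of 25697 probes and 8540 features after the detection filter. The groups were compared by lmFit and eBayes, two-sided. The precision is set by the number of arrays. The script was tested on simulated data. The methods call genes by SAM at a fold over 1.7 and an FDR under 0.01, and here those limits were applied to limma's values as an alternative. Genes named were all members, and up to 5 called genes of each other list by size of change with Ppara and Rxra. The members, the other lists and the pairs were chosen with earlier results of these data known. Upstream bases and gene order come from RefSeq (GRCm38.p6). The files name no genome build. Windows were aligned with Biopython, with scores of 1 for a match, -1 for a mismatch, -3 to open and -1 to extend a gap.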

Additional observations from a re-analysis of the deposited data

Results flagged for a closer look

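Among 144 groups of 4 livers, those of the 36 tested genes, the 13 other list genes named and the 23 tested cell markers, 11 held a liver far from its group by Dixon's test at the 95% level, and chance gives about 1 in 20 groups. Hsd17b4 was at 11.58 in TgC6hp55 replicate 4, against 11.86 to 11.91 in the other TgC6hp55 livers, and Pex10, near background, was at 5.31 in the same liver, against 4.42 to 4.56. Agps was at 6.51 in TgC6hp55 replicate 2, against 6.04 to 6.11 in the other TgC6hp55 livers. Pex2 was at 8.73 in wild type replicate 4, against 8.97 to 9.004 in the other wild type livers. None of these 4 peroxisomal genes passed the comparison of the groups. Acadm was at 12.14 in wild type replicate 1, against 11.92 to 11.93 in the other wild type livers. In wild type replicate 3 both pancreas markers stood apart from the other wild type livers, Amy2a5 at 11.65 (others 5.35 to 6.04) and Cela1 at 10.52 (others 9.07 to 9.29), and Hnf4a was at 10.40 (others 10.16 to 10.19). Stab2 was at 7.84 in TgC6hp55 replicate 4 (others 8.03 to 8.05), Pecam1 at 5.14 in wild type replicate 1 (others 5.44 to 5.49) and Marco at 4.74 in wild type replicate 4 (others 4.30 to 4.37).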

How the results depend on the processing

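Median scaling, which moved the median change of all features to -0.06, gave 293 features past the threshold, 4 metabolic genes higher, 1 lower, a metabolic median of -0.035 and a biogenesis median of 0.03. The unpaired t-test with equal variances called 585 features after adjustment (1954 before) with 6 metabolic genes higher and 2 lower. A fold over 1.7 with an adjusted p under 0.01 from limma called 287 features with 5 metabolic genes higher and 1 lower. With no filter on dim probes 742 features passed, with 7 metabolic genes higher and 3 lower. That setting ended the calls of Cat, Agxt, Pparg and Acadm (limma adjusted p = 0.0714, 0.0509, 0.0523 and 0.0547). Agxt, Pparg and Acadm also lost their calls with median scaling (limma adjusted p = 0.433, 0.257 and 0.780) and under the unpaired t-test (adjusted p = 0.0821, 0.0882 and 0.0755). Leaving out 1 liver at a time gave 620 to 910 features (620 without wild type replicate 2), 6 to 7 metabolic genes higher and 2 to 4 lower (2 without wild type replicate 2). The difference in change was 0.375 to 0.585 for Pex11a minus Pex11g and 0.422 to 0.620 for Acox2 minus Acox3 over these 8 fits. No biogenesis gene passed in any of the 19 alternatives, and no called change turned its sign. With the replicate number as a block, 923 features passed, with 7 metabolic genes higher and 4 lower, and the block ended the calls of Acadm and Ephx2 (limma adjusted p = 0.0513 and 0.0531). Deviations of same-numbered livers correlated at 0.16, 0.12, 0.01 and 0.11. The wild type liver that correlated best had the same number for TgC6hp55 replicates 1, 2 and 4, and was replicate 4 for TgC6hp55 replicate 3. The correlations were weak, and the numbers were not taken to pair the mice. SAM itself was not run. In wild type livers Hao2 and Abcd2 were at or near background. Raising undetected signals to the lowest detected signal of their array, chosen after seeing the data, gave a log2 difference of 2.85 for Hao2 and 1.59 for Abcd2, below the fitted 3.26 and 1.74.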
